A study of Mus musculus with 16 samples.

Results

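The late cornified envelope genes, with the envelope precursors, plakins and crosslinking enzymes that work beside them, were followed in mouse esophagus. The members were 34 genes picked by symbol, and those with any value above 0 in the deposited table were used. The criterion looks at all 16 libraries together and not at groups. It left 33 of 34 members, out of 27009 genes above 0 among the 41411 in the table. The only member at 0 in all 16 libraries was Sprr4.

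The cornified envelope is a sheet of crosslinked protein that replaces the plasma membrane of squamous epithelial cells in their last stage of differentiation. Plakins and involucrin are laid down first, small proline-rich (Sprr) proteins and loricrin follow, and the late cornified envelope (Lce) proteins are added last. Transglutaminases join these proteins through covalent bonds between glutamine and lysine residues. The esophagus of the mouse, unlike that of humans, is lined by a keratinized epithelium that forms such envelopes.

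RNA from esophagus of C57BL/6 mice was measured by CEL-Seq, a method that sequences a tag near the 3′ end of each transcript, in 4 groups of 4 libraries. The groups were Il13ra1-/- mice given OXA, Il13ra1-/- mice given vehicle, WT mice given OXA, and WT mice given vehicle. OXA, or oxazolone, is a hapten that per the labels served to model eosinophilic esophagitis. Il13ra1 encodes a receptor subunit through which IL-13 and, in the type II receptor, IL-4 signal. The sources used here do not give dose, time, vehicle, sex or age, nor the deleted stretch of Il13ra1 or whether the deletion was made in all cells. Il13ra1 itself ranged over 44.0 to 174 in Il13ra1-/- OXA and 31.2 to 64.7 in Il13ra1-/- vehicle esophagi, against 584 to 874 in WT OXA and 134 to 226 in WT vehicle esophagi. A 3′ tag outside the deleted part would not check the label.

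Values are counts of a gene after division by the size factor of its library, and whole reads could be recovered from them. The libraries held 8.82 M to 15.2 M reads in Il13ra1-/- OXA, 7.91 M to 16.5 M in Il13ra1-/- vehicle, 20.2 M to 27.3 M in WT OXA and 5.61 M to 9.55 M in WT vehicle. The WT OXA libraries were thus the deepest, and they also had the lowest share of mitochondrial ribosomal RNA, 0.445% to 0.460% of reads against 0.570% to 1.73% in the others. The labels name no separate animals beyond a letter-and-digit code in each title, so p-values measure the spread between these samples. In bulk tissue, fewer cells of a type and less RNA per cell cannot be told apart. Of the tissue's markers, Krt4 and Krt13, the keratins of suprabasal esophagus, were high in all 16 libraries, but both were lowest in WT OXA. Krt13 averaged 340815 in Il13ra1-/- OXA, 279969 in Il13ra1-/- vehicle, 148657 in WT OXA and 333043 in WT vehicle. Means of Krt4 are given below. Among epidermal and hair keratins Krt1 stayed between 0 and 11.5, Krt2 between 0 and 2.36, and Krt77 and Krt27 were at 0, whereas Krt10 was found in every library, at 20.1 to 90.5. The hair keratin Krt35 averaged 18 ± 8.23 in Il13ra1-/- OXA, 22.4 ± 5.86 in Il13ra1-/- vehicle, 1.73 ± 1.16 in WT OXA and 16.9 ± 5.88 in WT vehicle (SD, n = 4 each).

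Of the members, 27 lay within 0.939 Mb of chromosome 3, between bases 92080271 and 93019060 of GRCm38, in the gene cluster known as the epidermal differentiation complex. The order there was Lor, the Sprr genes, Ivl, the run of Lce1 genes with Kprp inside it, the 6 Lce3 genes and Lce1m. All 14 Lce1 and all 6 Lce3 genes have 2 exons. The other 7 members were Tgm5 and Tgm3 on chromosome 2, Cnfn on 7, Evpl on 11, Tgm1 on 14, Ppl on 16 and Cst6 on 19.

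Upstream sequence is shown for 6 members of the cluster that moved in different directions or by different amounts in WT esophagus: Sprr1a and Sprr1b, which rose, and Lor, Lce1k, Lce1m and Lce3e, which fell. Each line gives the 250 bases before the RefSeq transcript start in GRCm38.p6, 5′ to 3′ on the gene's strand. Capitals mark every match to TATAAA, the TATA box, or to TGANTCA, a loose form of the AP-1 site, on either strand. Matches did not overlap, and the Lce1k window holds none. The Lce3e match is TATAAA on the other strand, 243 to 238 bases before the start.
Sprr1a, chr3:92485882-92486131, minus strand: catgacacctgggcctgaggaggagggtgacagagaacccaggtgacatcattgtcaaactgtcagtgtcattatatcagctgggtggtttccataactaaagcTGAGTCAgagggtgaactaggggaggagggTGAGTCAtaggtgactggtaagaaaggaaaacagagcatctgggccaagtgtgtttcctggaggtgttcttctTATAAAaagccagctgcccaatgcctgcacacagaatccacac
Sprr1b, chr3:92438780-92439029, minus strand: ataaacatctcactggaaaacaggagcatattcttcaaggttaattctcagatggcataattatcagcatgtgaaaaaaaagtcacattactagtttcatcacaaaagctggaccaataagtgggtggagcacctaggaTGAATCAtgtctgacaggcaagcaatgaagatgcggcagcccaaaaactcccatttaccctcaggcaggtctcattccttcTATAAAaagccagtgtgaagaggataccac
Lor, chr3:92083143-92083392, minus strand: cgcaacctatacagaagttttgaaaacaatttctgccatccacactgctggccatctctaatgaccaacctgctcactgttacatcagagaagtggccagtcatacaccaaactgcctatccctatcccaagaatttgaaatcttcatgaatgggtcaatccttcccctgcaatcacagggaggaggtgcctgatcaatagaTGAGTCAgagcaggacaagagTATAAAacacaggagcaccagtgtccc
Lce1k, chr3:92807892-92808141, minus strand: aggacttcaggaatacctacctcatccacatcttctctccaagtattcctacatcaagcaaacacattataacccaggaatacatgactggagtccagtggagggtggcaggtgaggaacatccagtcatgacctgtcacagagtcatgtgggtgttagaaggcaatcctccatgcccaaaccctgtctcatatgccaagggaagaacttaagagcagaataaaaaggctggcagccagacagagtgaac
Lce1m, chr3:93019062-93019311, minus strand: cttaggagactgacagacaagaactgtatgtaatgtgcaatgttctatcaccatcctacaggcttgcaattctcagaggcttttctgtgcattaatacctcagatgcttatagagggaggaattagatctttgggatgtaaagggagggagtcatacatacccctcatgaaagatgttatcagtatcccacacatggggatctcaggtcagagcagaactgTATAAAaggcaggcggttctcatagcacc
Lce3e, chr3:92966811-92967060, plus strand: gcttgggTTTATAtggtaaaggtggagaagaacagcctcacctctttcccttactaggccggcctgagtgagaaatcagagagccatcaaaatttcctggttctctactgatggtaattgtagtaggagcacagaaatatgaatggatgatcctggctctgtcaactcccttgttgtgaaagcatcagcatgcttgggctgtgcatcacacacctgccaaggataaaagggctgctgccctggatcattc

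RefSeq promoter windows of 300 bases, from 250 before to 50 after the start, were found for 29 of 34 members. TGANTCA was present in the windows of 4 members, Lor, Ivl, Sprr1a (2 copies) and Sprr1b, in 0 of 13 Lce1 windows and in 0 of 6 Lce3 windows, against 7.81% of all 32817 promoter windows. TATAAA was found in 9 of the 30 member windows, as Tgm1 has a pair of starts, against 13.6% of all windows. The STAT6 motif, TTC and GAA with 4 bases between, was in 0 of 30, against 6.95% of all windows. The STAT motif with 3 bases between was in the windows of 2 members, Lce1l and Tgm1, against 8.29%. The KLF core CACCC was in 16 of 30 windows against 57.5%, the C/EBP core in 3 against 10.8%, and the grainyhead core in 1, that of Tgm5, against 2.08%. Both strands were searched. In Lor the TATA box stood 27 to 22 bases and the TGANTCA match 48 to 42 bases before the start. In Sprr1b they stood 30 to 25 and 111 to 105 bases before it. A match says only that these letters stand in the window. Within families the windows were alike to different degrees: identity over pairs had a median of 63.4% in Lce1 (48.0% to 86.0%, 78 pairs), 57.8% in Lce3 (54.6% to 83.1%, 15 pairs), and 49.6% between Lce1 and Lce3 (44.3% to 54.0%, 78 pairs).

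In WT esophagus, OXA was followed by a fall of most late envelope genes and a rise of 2 small proline-rich genes. By limma with Benjamini-Hochberg adjustment over 16748 genes, 26 of 33 members tested were lower in WT OXA than in WT vehicle esophagi, and 2 were higher. Over all genes tested, 16% were called lower and 18.0% higher, in all 34%. The median log2 fold change was -3.18 over the members and 0.10 over all genes tested. All 26 that fell had every WT OXA library below every WT vehicle library, which held for 15.7% of all genes tested. Both that rose had every WT OXA library above every WT vehicle library (18.5% of all genes tested). With every library thinned to 5.61 M reads, the counts were again 26 lower and 2 higher.

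**Figure D1:**
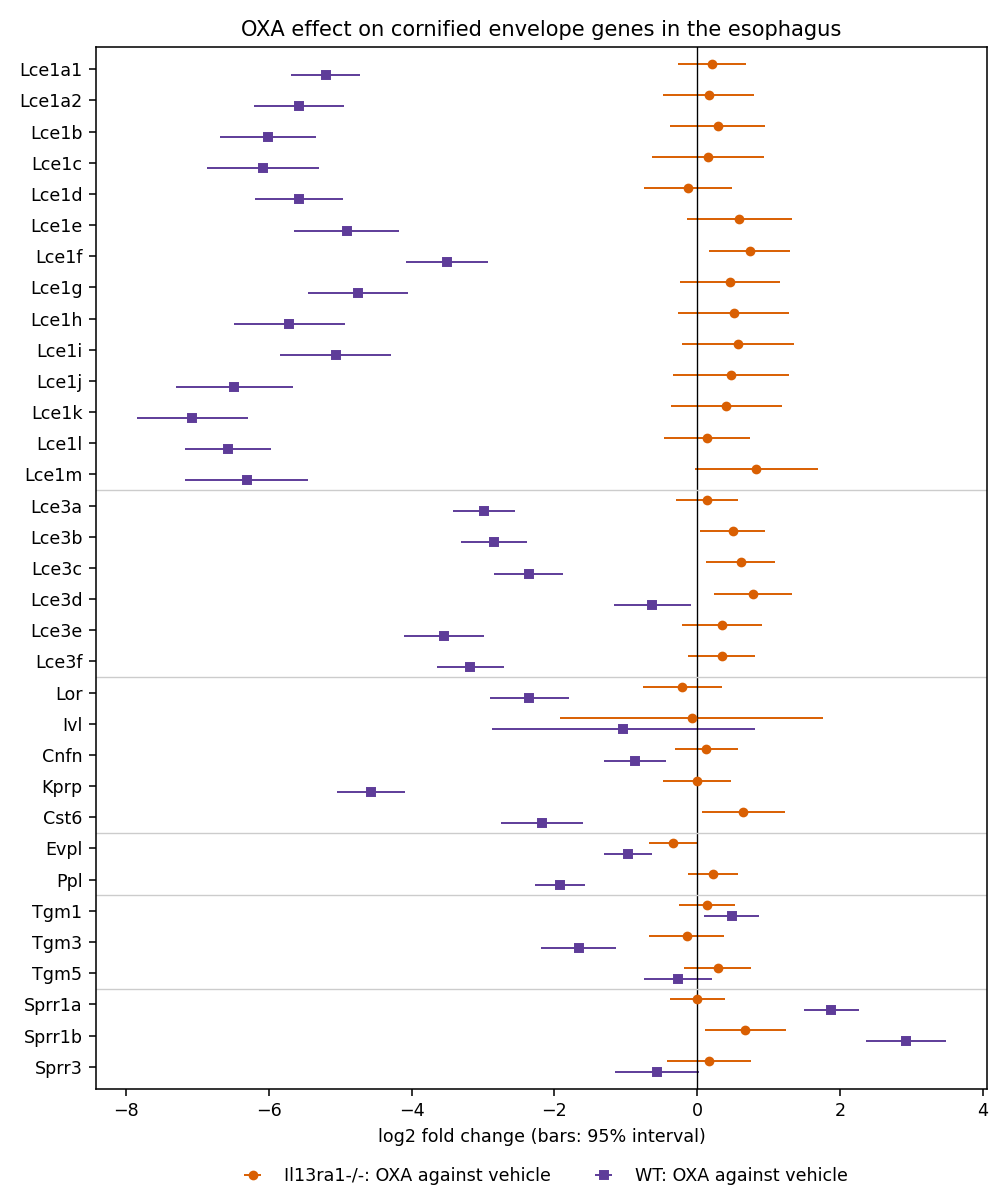
Log2 fold change of OXA against vehicle for the 33 members tested, in Il13ra1-/- (circles) and WT (squares) esophagus. The x axis is the fold change on the log2(value + 1) scale, bars are 95% intervals, and grey lines separate families. The 14 Lce1 genes lie between -3.50 and -7.07 in WT and between -0.13 and 0.83 in Il13ra1-/-.

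The Lce1 proteins, small glycine-, serine- and cysteine-rich substrates of transglutaminases, made up the family with the largest falls. All 14 Lce1 genes fell in WT, with log2 fold changes from -7.07 to -3.50 and a median of -5.64. In linear terms their WT OXA means were 10.4- to 121-fold lower than their WT vehicle means. Lce1k, the most changed, had 2479, 1902, 3496 and 1459.9 in Il13ra1-/- OXA, 1305, 1904, 1624 and 1927 in Il13ra1-/- vehicle, 24.7, 12.3, 3.92 and 5.40 in WT OXA and 1937, 1405, 1039.9 and 1232 in WT vehicle esophagi. The 4 WT OXA values were far below all 12 others, and the remaining groups overlapped. Its log2 fold change in WT was -7.07 ± 0.37 (SE, adjusted p = 6.29e-11), on means of 11.6 ± 9.47 in WT OXA and 1404 ± 386 in WT vehicle (SD, n = 4 each). Lce1k was 121-fold lower by those means, and 195-fold lower without WT OXA library 1. The fold was below 121 without WT OXA library 3, the lowest of its group. Its WT OXA values stood on 68, 24, 10 and 10 reads.

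Lce1l, Lce1j and Lce1m came next in size among the Lce1 genes. Lce1l had 2063, 1587, 4067 and 1724 in Il13ra1-/- OXA, 1871, 2188, 2109.9 and 1810.4 in Il13ra1-/- vehicle, 12.7, 17.4, 7.45 and 8.64 in WT OXA and 1867, 916, 845 and 1168 in WT vehicle. It was 104-fold lower in WT OXA (log2 fold change -6.57 ± 0.29, adjusted p = 3.88e-12). All 4 WT OXA libraries were below the other 12. Lce1j had 1434, 1367, 3728 and 799 in Il13ra1-/- OXA, 923, 1363, 973 and 1288 in Il13ra1-/- vehicle, 15.97, 14.9, 3.53 and 7.02 in WT OXA and 1133, 719, 837 and 923 in WT vehicle. The third Il13ra1-/- OXA library was the highest of all 16, and the WT OXA libraries were again the 4 lowest. Lce1m, which lies apart from the other Lce1 genes beyond the Lce3 run, had 724, 531, 754 and 587 in Il13ra1-/- OXA, 392, 382, 291 and 392 in Il13ra1-/- vehicle, 10.5, 1.03, 3.53 and 0.540 in WT OXA and 336, 230.2, 252 and 328 in WT vehicle. These WT OXA values stood on 29, 2, 9 and 1 reads, so the size of the fall, -6.31 ± 0.41 on the log2 scale, rests on few reads (adjusted p = 1.11e-09).

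Lce1c and Lce1b, near the start of the Lce1 run, fell by similar amounts. Lce1c had 2732, 1878, 3341 and 2259.6 in Il13ra1-/- OXA, 2234, 2335, 2076 and 2349 in Il13ra1-/- vehicle, 60.2, 61.1, 9.81 and 21.1 in WT OXA and 2595, 2252, 1731 and 1863 in WT vehicle. Its log2 fold change in WT was -6.08 ± 0.38. Lce1b had 4389.6, 3137, 6714 and 4208 in Il13ra1-/- OXA, 3714, 4058, 3665 and 3194 in Il13ra1-/- vehicle, 72.95, 85.7, 19.2 and 48.6 in WT OXA and 4005, 3618, 2514 and 3059.8 in WT vehicle, with a log2 fold change of -6.01 ± 0.32 in WT. In both genes the third WT OXA library was lowest and the WT groups were wholly separate.

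Lce1h, Lce1a2, Lce1d, Lce1a1 and Lce1i made up the middle of the family by size of change. Lce1h had 11478, 7689, 17719 and 6946 in Il13ra1-/- OXA, 8655, 7044, 6913 and 6285 in Il13ra1-/- vehicle, 165, 211, 40.4 and 104 in WT OXA and 8574, 5095, 4559 and 5785 in WT vehicle. Among the Il13ra1-/- OXA libraries the spread was wide, and the third stood above the other 15. Lce1a2 had 4056, 3171, 5261 and 3537 in Il13ra1-/- OXA, 3377, 3783, 3638 and 3297 in Il13ra1-/- vehicle, 76.9, 134, 27.9 and 62.1 in WT OXA and 4127, 3519, 2558 and 2683 in WT vehicle. The vehicle groups and the Il13ra1-/- OXA group shared a range far above the WT OXA values (42.8-fold lower in WT OXA than in WT vehicle by means). Lce1d had 5594, 3869.7, 7697 and 3265 in Il13ra1-/- OXA, 5276, 5632, 5439 and 4876 in Il13ra1-/- vehicle, 135, 147, 46.3 and 72.9 in WT OXA and 5400.2, 4886, 3483 and 3933 in WT vehicle. It was 1 of the 7 members, and the only Lce1 gene, whose point estimate in Il13ra1-/- was below 0 (-0.13, adjusted p = 0.888). Lce1a1 had 7672, 5901, 8927 and 4519 in Il13ra1-/- OXA, 4742, 6391, 5453 and 6216 in Il13ra1-/- vehicle, 159, 184, 83.96 and 117 in WT OXA and 5567, 5827, 3921 and 4346 in WT vehicle. The second WT OXA library was the highest of its group in this gene, and the third the lowest. Lce1i had 6242, 4586, 10578 and 3679 in Il13ra1-/- OXA, 4093, 4431, 3711 and 3459.9 in Il13ra1-/- vehicle, 152, 139, 31 and 77.8 in WT OXA and 4228, 2707, 2191 and 2688 in WT vehicle. Its WT OXA values were spread, yet all were far below any other value.

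Lce1e, Lce1g and Lce1f fell least within the family. Lce1e had 3519, 3199, 5319 and 1829 in Il13ra1-/- OXA, 2057, 2405, 2179 and 1986 in Il13ra1-/- vehicle, 105, 126, 30.2 and 54 in WT OXA and 2772, 2581, 1399 and 1889.8 in WT vehicle. The groups of WT did not overlap, and the log2 fold change was -4.91 ± 0.35. Lce1g had 6089, 6631, 10076 and 3784 in Il13ra1-/- OXA, 4132, 5417, 4083 and 4755 in Il13ra1-/- vehicle, 162, 251, 61.2 and 104 in WT OXA and 5089, 3424, 2324 and 3454 in WT vehicle, and its fold change in WT was -4.75 ± 0.34. In Lce1f the values were 4855, 3332, 5904 and 3005 in Il13ra1-/- OXA, 2761, 2746, 2279.6 and 2165 in Il13ra1-/- vehicle, 221, 450.0, 145 and 165 in WT OXA and 3230.2, 2399.9, 2189 and 2371 in WT vehicle. This was the Lce1 gene with the highest WT OXA values, and it was 10.4-fold lower in WT OXA (log2 fold change -3.50 ± 0.27, adjusted p = 1.23e-08). In each of the 3 genes, library 3 was the highest and library 4 the lowest of the Il13ra1-/- OXA group.

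Reads of Lce genes may not all be told apart. Of 34 members, 14 shared at least 1 run of 50 bases in the last 300 bases of their transcript with another gene, all of them Lce genes. The share of such runs was highest for Lce3d (42.2%) and Lce1b (32.7%). Lce1f, Lce1g, Lce1l, Lce1m, Lce3e and Lce3f shared none, but runs from the ends of other members stood elsewhere in the transcripts of Lce1f, Lce1g, Lce3e and Lce3f. Lce1l and Lce1m, which fell in WT, were in neither position.

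**Figure D2:**
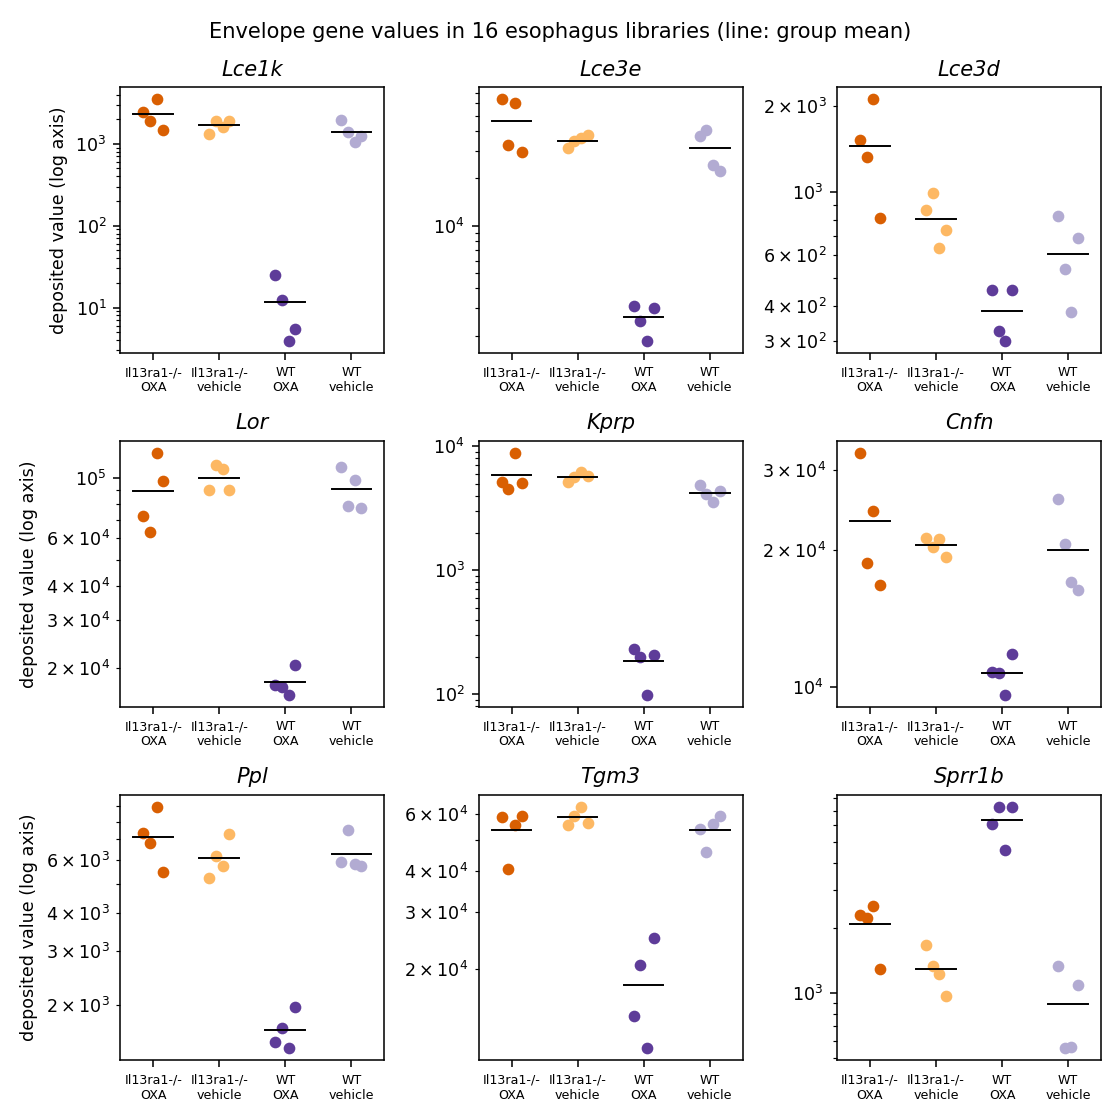
Deposited values of 9 members in the 16 libraries, on log axes that differ between panels. Each point is a library, and lines are group means, with Il13ra1-/- OXA, Il13ra1-/- vehicle, WT OXA and WT vehicle in that order. WT OXA libraries lie below all others in 7 panels, overlap the WT vehicle libraries in Lce3d, and lie above all others in Sprr1b.

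The Lce3 genes, known in human skin for their induction after barrier damage, gave 5 of 6 that fell in WT, with smaller log2 fold changes than 13 of the 14 Lce1 genes. Lce3e, the most changed, had 63394, 32586, 60375 and 29578 in Il13ra1-/- OXA, 30911, 34422, 35879.8 and 37466 in Il13ra1-/- vehicle, 3112, 2483, 1861 and 3019.8 in WT OXA and 37348, 40490.1, 24191 and 22116 in WT vehicle. WT OXA libraries were 11.9-fold lower than WT vehicle libraries by their means (log2 fold change -3.55 ± 0.27, adjusted p = 8.66e-09), which is close to the fall of Lce1f. Lce3f had 14597, 7716, 13041 and 7141 in Il13ra1-/- OXA, 8181, 8177, 7219 and 8479 in Il13ra1-/- vehicle, 931, 869, 734 and 812 in WT OXA and 9023, 10656, 5878 and 5743 in WT vehicle, with a log2 fold change in WT of -3.18 ± 0.23. Lce3a had 16511, 9103, 13248 and 8240.3 in Il13ra1-/- OXA, 9614, 10616, 9952 and 11245 in Il13ra1-/- vehicle, 1101, 1107, 957 and 1314 in WT OXA and 10558, 11125, 6664 and 7780.0 in WT vehicle, with -2.99 ± 0.21 on the log2 scale. In both, the WT OXA libraries were tightly grouped and separate from the rest. Lce3b had 32233, 23764, 29409 and 13989 in Il13ra1-/- OXA, 16668, 16986, 15225 and 18626 in Il13ra1-/- vehicle, 2158, 2315, 2049 and 2666 in WT OXA and 19300.0, 18558, 12778 and 16075 in WT vehicle. The fourth Il13ra1-/- OXA library lay below the other 3 of its group, under the vehicle libraries of the same genotype. Lce3c had 52070.1, 30315, 44886 and 26682 in Il13ra1-/- OXA, 25325, 24241, 21866 and 26046 in Il13ra1-/- vehicle, 4856, 4085, 3747 and 5038 in WT OXA and 27709, 29543, 17736 and 18007 in WT vehicle. Its log2 fold change in WT was -2.36 ± 0.23, the smallest fall among the 5 Lce3 genes called.

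Lce3d was the Lce3 gene that was not called in WT. It had 1527, 1331, 2113 and 814 in Il13ra1-/- OXA, 865, 988, 638 and 734 in Il13ra1-/- vehicle, 453, 326, 301 and 452 in WT OXA and 822, 538, 379 and 691 in WT vehicle. The lowest WT vehicle library lay within the WT OXA range, and the difference did not pass the test (log2 fold change -0.63 ± 0.26, 95% interval -1.17 to -0.09, adjusted p = 0.0669). It passed under DESeq2 (adjusted p = 0.0393), after quantile normalization (0.0447), and by limma without Il13ra1-/- OXA library 3 (0.0495), without library 4 of that group (0.0349) or without WT vehicle library 3 (0.0205). Of the Lce genes it had the largest share of 3′ sequence in common with others. As a percentage of Lce3e in the same library, Lce3d stood at 3.19 ± 0.752 in Il13ra1-/- OXA, 2.35 ± 0.563 in Il13ra1-/- vehicle, 14.7 ± 1.26 in WT OXA and 2.06 ± 0.802 in WT vehicle (SD, n = 4 each).

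The balance between the families within a library was compared without a test, since sums over chosen members carry none here. The ratio of the Lce1 sum to the Lce3 sum was 0.351, 0.465, 0.574 and 0.481 in Il13ra1-/- OXA, 0.497, 0.525, 0.489 and 0.429 in Il13ra1-/- vehicle, 0.109, 0.164, 0.0532 and 0.0637 in WT OXA and 0.486, 0.357, 0.441 and 0.507 in WT vehicle. All 4 WT OXA libraries were below the lowest of the other 12. As a percentage of the sum over all members, the Lce1 genes made up 13.7 ± 2.59 in Il13ra1-/- OXA, 11.7 ± 0.529 in Il13ra1-/- vehicle, 0.906 ± 0.458 in WT OXA and 10.8 ± 1.27 in WT vehicle (SD, n = 4 each). As a percentage of the library total, all members together made up 3.19 ± 0.427 in Il13ra1-/- OXA, 3.13 ± 0.173 in Il13ra1-/- vehicle, 1.22 ± 0.0986 in WT OXA and 2.79 ± 0.349 in WT vehicle.

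**Figure D3:**
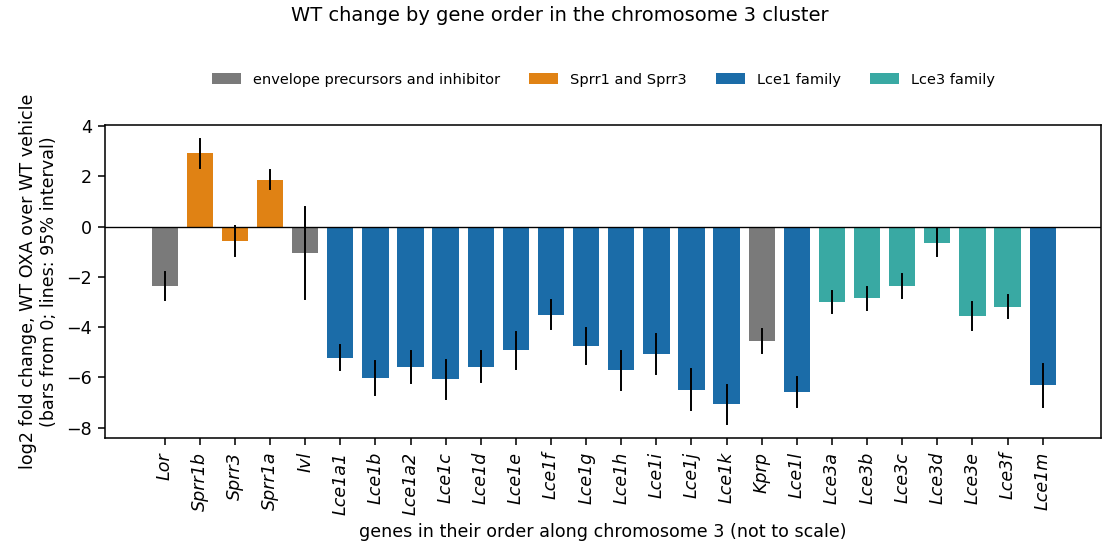
Log2 fold change of WT OXA over WT vehicle for the 26 tested members on chromosome 3, in gene order and not to scale, coloured by family, with 95% intervals as lines. Bars start at 0. Sprr1b and Sprr1a, at 2.92 and 1.87, stand above 0 between Lor and Ivl, and the Lce1 and Lce3 runs lie below 0.

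The envelope precursors gave mixed sizes of change in WT, with 4 of 5 lower. Kprp, a keratinocyte proline-rich protein encoded inside the Lce1 run, had 5167, 4506, 8803 and 5043 in Il13ra1-/- OXA, 5106, 5691, 6197 and 5743 in Il13ra1-/- vehicle, 234, 202, 99.7 and 207 in WT OXA and 4879.7, 4141, 3570.2 and 4348 in WT vehicle. It was 22.8-fold lower in WT OXA (log2 fold change -4.57 ± 0.23, adjusted p = 3.21e-11), less than Lce1k and Lce1l on either side of it. Loricrin (Lor), the glycine-rich protein that forms the bulk of the envelope in epidermis, had 72599, 63093, 123443 and 97834 in Il13ra1-/- OXA, 90444, 111913, 107646 and 90359 in Il13ra1-/- vehicle, 17339, 17024, 15989 and 20541 in WT OXA and 109383, 78741, 98075 and 77839.8 in WT vehicle. The WT OXA libraries lay below the other 12, 5.14-fold lower than WT vehicle by means, with a log2 fold change of -2.35 ± 0.26 (adjusted p = 1.84e-06).

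Cst6, which encodes cystatin M/E, an inhibitor of cathepsins and legumain, had 847, 364, 512 and 300.2 in Il13ra1-/- OXA, 339, 293, 202 and 396 in Il13ra1-/- vehicle, 70.8, 79.03, 57.3 and 95.04 in WT OXA and 421, 391, 286 and 279 in WT vehicle. Its log2 fold change in WT was -2.17 ± 0.28 (adjusted p = 7.85e-06), without overlap. Cornifelin (Cnfn), an envelope component, had 32693, 18759, 24347 and 16785 in Il13ra1-/- OXA, 21241, 20360.2, 21179 and 19313 in Il13ra1-/- vehicle, 10819.5, 10746, 9631 and 11801 in WT OXA and 25899, 20605, 17061 and 16382 in WT vehicle. The fall was small beside those of the Lce genes, -0.87 ± 0.21 (adjusted p = 0.00325), and was not called after quantile normalization (-0.33, adjusted p = 0.150). Involucrin (Ivl), an early scaffold protein, was near the floor of detection: 16.5, 11.9, 11.1 and 3.15 in Il13ra1-/- OXA, 4.87, 12.1, 13.7 and 11.5 in Il13ra1-/- vehicle, 2.54, 0.510, 1.57 and 4.32 in WT OXA and 1.38, 34, 14.6 and 0 in WT vehicle, on 0 to 22 reads per library. No comparison of Ivl passed the test by limma, and its 95% interval in WT ran over -2.88 to 0.80 on the log2 scale.

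Both plakins, which link the envelope to desmosomes and keratin filaments, were lower in WT OXA. Periplakin (Ppl) had 7309, 6792, 8942 and 5444 in Il13ra1-/- OXA, 5200.1, 6152, 5721 and 7271 in Il13ra1-/- vehicle, 1510.1, 1685, 1441 and 1966 in WT OXA and 5906, 7516, 5789 and 5736 in WT vehicle. Its log2 fold change in WT was -1.92 ± 0.17 (adjusted p = 6.54e-08). Envoplakin (Evpl), its binding partner, had 2563, 2341, 3838 and 3663 in Il13ra1-/- OXA, 3215, 3916, 4369.8 and 3893 in Il13ra1-/- vehicle, 1921, 2122, 2194 and 2207 in WT OXA and 4092, 3627, 4431 and 4455 in WT vehicle. Its log2 fold change in WT was -0.97 ± 0.16 (adjusted p = 1.30e-04). The WT groups were separate in both genes, while the Il13ra1-/- OXA libraries 1 and 2 for Evpl lay between them.

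The 3 crosslinking enzymes differed. Tgm3, a cytosolic transglutaminase activated by proteolysis, had 58900.2, 40639, 55487 and 59312 in Il13ra1-/- OXA, 55521, 59300.3, 63313 and 56556 in Il13ra1-/- vehicle, 14253, 20585, 11351 and 24858 in WT OXA and 54000.5, 46035, 56057 and 59135 in WT vehicle. All 4 WT OXA libraries were below the other 12. It was 3.03-fold lower in WT OXA than in WT vehicle (log2 fold change -1.66 ± 0.25, adjusted p = 5.27e-05). Tgm1, the membrane-anchored enzyme, had 517, 289, 335 and 369 in Il13ra1-/- OXA, 366, 329, 298 and 356 in Il13ra1-/- vehicle, 496, 340.2, 413 and 577 in WT OXA and 325, 334, 279 and 349.9 in WT vehicle. Its estimate in WT was above 0, at 0.48 ± 0.19, and did not pass the test (adjusted p = 0.0522). It did pass with equal library totals (0.00122), under a filter of 20 (0.0471), by edgeR (0.0334), by DESeq2 (0.0326), and by limma without Il13ra1-/- OXA library 1 (0.0269), without library 2 of that group (0.0437) or without WT OXA library 2 (0.0224). Tgm5, expressed in upper epidermis, had 970.0, 683, 578 and 458 in Il13ra1-/- OXA, 410.4, 571, 479 and 706 in Il13ra1-/- vehicle, 307, 424, 313 and 464 in WT OXA and 576, 482, 358 and 403 in WT vehicle. The WT groups overlapped, and the 95% interval ran over -0.74 to 0.20 (adjusted p = 0.383). The ratio of Tgm3 to Tgm1 within a library, which compares 2 genes of unlike length and is therefore read only across libraries, was 145 ± 23.5 in Il13ra1-/- OXA, 176 ± 27.1 in Il13ra1-/- vehicle, 39.96 ± 15.4 in WT OXA and 168 ± 25.7 in WT vehicle (SD, n = 4 each).

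Sprr1a and Sprr1b, proline-rich bridging proteins known for their induction in stressed epithelia, were the 2 members that rose in WT. Sprr1b had 2307, 2219, 2544 and 1297 in Il13ra1-/- OXA, 1663, 1328, 1221 and 967 in Il13ra1-/- vehicle, 6092, 7319.8, 4625 and 7295 in WT OXA and 1339.7, 553, 562 and 1089.8 in WT vehicle. All 4 WT OXA libraries exceeded the other 12, and the log2 fold change in WT was 2.92 ± 0.27 (adjusted p = 1.61e-07, 7.15-fold by means). Sprr1a had 12324, 8350.2, 12299 and 11147 in Il13ra1-/- OXA, 11578, 10719.9, 11879 and 9648 in Il13ra1-/- vehicle, 27567, 27423, 27061 and 30885 in WT OXA and 10413, 6863, 8007 and 6135 in WT vehicle. The 4 WT OXA values again exceeded the other 12. It was 3.59-fold higher in WT OXA than in WT vehicle (log2 fold change 1.87 ± 0.18, adjusted p = 3.39e-07). Sprr3, a major proline-rich protein of esophagus, had 82062, 38033, 48775 and 37019 in Il13ra1-/- OXA, 43795, 44256, 41566 and 44173 in Il13ra1-/- vehicle, 24919.8, 27576, 26593 and 31137 in WT OXA and 48482, 62531, 32067 and 27788 in WT vehicle. The highest WT OXA library lay above the lowest WT vehicle library by a little, and the difference was not called by limma (-0.56 ± 0.28, adjusted p = 0.134), though it was by DESeq2 (0.0336).

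Sprr4 had 0 reads in every library. Counting 3 reads as the limit that 0 allows over a group, it could have been at up to 0.0648 CPM in Il13ra1-/- OXA, 0.0583 in Il13ra1-/- vehicle, 0.0322 in WT OXA and 0.0981 in WT vehicle. These limits cover counting error only. Its gene model is a single exon of 231 bases, and a 3′ tag beyond it would not be counted.

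The balance of Lor and the Sprr1 genes was also taken within each library, without a test. Lor divided by the sum of Sprr1a and Sprr1b gave 4.96, 5.97, 8.32 and 7.86 in Il13ra1-/- OXA, 6.83, 9.29, 8.22 and 8.51 in Il13ra1-/- vehicle, 0.515, 0.490, 0.505 and 0.538 in WT OXA and 9.31, 10.6, 11.4 and 10.8 in WT vehicle. The WT OXA ratios were the 4 lowest, far under those of every other library. To set the members against a differentiation keratin, sums were divided by Krt4, which itself had means of 1436910 in Il13ra1-/- OXA, 1214490 in Il13ra1-/- vehicle, 375742 in WT OXA and 1247940 in WT vehicle esophagi. As a percentage of Krt4 in the same library, the Lce1 sum was 4.47 ± 1.46 in Il13ra1-/- OXA, 3.85 ± 0.742 in Il13ra1-/- vehicle, 0.316 ± 0.171 in WT OXA and 3.16 ± 0.648 in WT vehicle. The Lce3 sum, likewise, was 9.41 ± 1.62 in Il13ra1-/- OXA, 7.91 ± 1.03 in Il13ra1-/- vehicle, 3.22 ± 0.770 in WT OXA and 7.08 ± 1.09 in WT vehicle. On this scale Lce1, and to a lesser degree Lce3, was lowest in the 4 WT OXA libraries, with no overlap. Sprr1a and Sprr1b together stood at 0.963 ± 0.191 in Il13ra1-/- OXA, 1.02 ± 0.164 in Il13ra1-/- vehicle, 9.52 ± 1.74 in WT OXA and 0.706 ± 0.126 in WT vehicle. Lor stood at 6.68 ± 2.41 in Il13ra1-/- OXA, 8.40 ± 1.91 in Il13ra1-/- vehicle, 4.87 ± 0.874 in WT OXA and 7.40 ± 1.22 in WT vehicle (SD, n = 4 in every case). The Sprr1 percentages were highest in WT OXA with no overlap, while for Lor the WT OXA range of 4.12 to 5.97 percent overlapped those of Il13ra1-/- OXA and WT vehicle but not that of Il13ra1-/- vehicle. Other members were not divided by Krt4. Those with smaller falls in WT, such as Tgm3, Evpl and Cnfn, need not be lower on this scale, as Krt4 itself was lower in WT OXA.

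**Figure D4:**
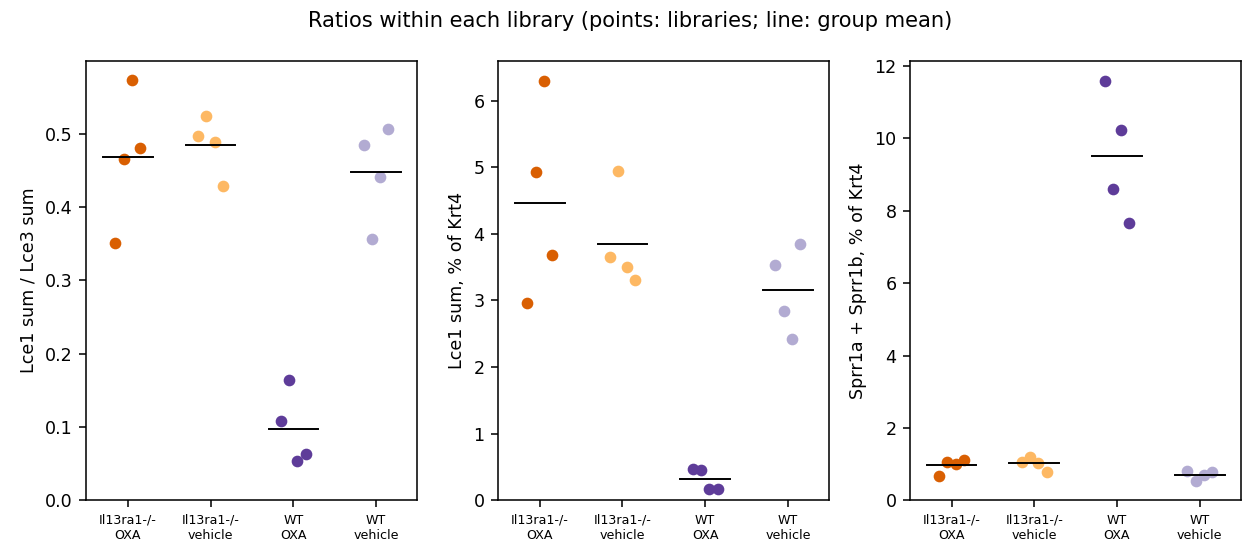
Ratios of summed member values within each of the 16 libraries: the Lce1 sum over the Lce3 sum (left), the Lce1 sum as a percentage of Krt4 (middle), and Sprr1a plus Sprr1b as a percentage of Krt4 (right). Points are libraries, lines are means, and axes start at 0. WT OXA libraries are lowest in the left and middle panels, at 0.0532 to 0.164 and 0.166 to 0.473 percent, and highest in the right panel, at 7.66 to 11.6 percent.

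In Il13ra1-/- esophagus no member passed the test for OXA against vehicle. By limma 0 of 33 members tested were higher and 0 were lower. Of all genes tested, 1.81% were called higher and 0.0896% lower, in all 1.90%. Without adjustment, 6 members had a p under 0.05, all higher in OXA: Lce1f, Lce3b, Lce3c, Lce3d, Cst6 and Sprr1b. The estimate was above 0 for 26 of 33 members, with a median log2 fold change of 0.29 over the members and -0.01 over all genes tested. All 4 OXA libraries exceeded all 4 vehicle libraries for 3 members, Lce1f, Lce1m and Lce3c, against 3.93% of all genes tested, and all 4 lay below for 0 members, against 2.94%. By edgeR 0 members were called and by DESeq2 3 were called higher, Lce1m (adjusted p = 0.0471), Lce3c (0.0449) and Lce3d (0.0381). A limma fit to the Il13ra1-/- libraries alone called Lce1m (0.0313). Leaving out Il13ra1-/- OXA library 4 also gave 3 calls higher, Lce3b (0.0148), Lce3c (0.0493) and Lce3d (0.0142).

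The intervals show what sizes these data allow for the Il13ra1-/- effect. For Lce1k the 95% interval ran over -0.37 to 1.19 on the log2 scale, for Lce3e over -0.22 to 0.90, for Lor over -0.76 to 0.34 and for Sprr1a over -0.39 to 0.38. None of these reached the WT estimates of the same genes. Lce1m had the highest estimate, 0.83 ± 0.41 (adjusted p = 0.375), and Evpl the lowest, -0.34 ± 0.16 (adjusted p = 0.352). The Il13ra1-/- OXA libraries were more spread than those of the same genotype under vehicle: the Lce1 sum was 61822 ± 23019.8 in Il13ra1-/- OXA, 46012 ± 2787 in Il13ra1-/- vehicle, 1142 ± 582 in WT OXA and 39002 ± 8862 in WT vehicle, and the Lce3 sum was 133666 ± 45110.1 in Il13ra1-/- OXA, 95092 ± 5399.8 in Il13ra1-/- vehicle, 11687 ± 1619 in WT OXA and 88427 ± 22579 in WT vehicle (SD, n = 4 each).

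The difference between genotypes in the OXA effect was tested as an interaction term of the same fit. This comparison shares its libraries with the 2 above, so it is not separate evidence. It was above 0 and called for 26 of 33 members and below 0 and called for 2 (background over all genes tested, 10.1% and 7.67%). All 14 Lce1 genes were called, from 4.24 ± 0.39 for Lce1f to 7.48 ± 0.53 for Lce1k, and all 6 Lce3 genes, from 1.41 ± 0.37 for Lce3d (adjusted p = 0.0117) to 3.89 ± 0.38 for Lce3e. Kprp (4.57 ± 0.32), Cst6 (2.82 ± 0.39), Lor (2.14 ± 0.37), Ppl (2.13 ± 0.24), Tgm3 (1.51 ± 0.36) and Cnfn (1.0 ± 0.30) were called above 0. Sprr1a (-1.88 ± 0.26) and Sprr1b (-2.25 ± 0.38) were the 2 called below 0. Ivl, Evpl, Tgm1, Tgm5 and Sprr3 were not called. For Evpl the adjusted p was 0.0589, and it passed by DESeq2 (0.0211) and by limma without Il13ra1-/- OXA library 1 (0.0377), without library 2 of that group (0.0202) or without WT vehicle library 2 (0.0435). The Cnfn call was lost without WT OXA library 3 (0.0567) or WT vehicle library 1 (0.0521), with no filter (0.0668), with equal totals (0.0823) and after quantile normalization (0.581). The Tgm3 call was lost with quantile normalization (0.0938).

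Under OXA, Il13ra1-/- esophagi were compared directly with WT esophagi. Of 33 members tested, 29 were higher and 2 were lower in Il13ra1-/-, while 14.6% and 12.9% of all genes tested were called in those directions. The median was 3.6 over the members and -0.05 over all genes tested. For 28 members every Il13ra1-/- OXA library was above every WT OXA library, and for 2 every one was below (14.0% and 15.3% of all genes tested). With all libraries, the ratio of means was 204-fold for Lce1l (log2 fold change 7.51 ± 0.29, adjusted p = 9.17e-13), and that of Lce1k was 202-fold. Without WT OXA library 1 these were 211-fold for Lce1l and 324-fold for Lce1k, and Lce1m, on few reads, stood at 382-fold, against 166-fold with it. Leaving out Il13ra1-/- OXA library 3, the highest of its group for these genes, lowered the ratios instead. Among the Lce3 genes the range ran from 3.78-fold for Lce3d to 17.8-fold for Lce3e. Sprr1a and Sprr1b were lower in Il13ra1-/- OXA, with log2 fold changes of -1.37 ± 0.18 and -1.62 ± 0.27. Ivl and Tgm1 were not called (adjusted p = 0.137 and 0.290).

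Calls for 4 smaller differences under OXA depended on the settings. For Tgm5 (0.80 ± 0.23, adjusted p = 0.0114) the groups overlapped, and the call was lost with equal library totals (0.130). Evpl (0.52 ± 0.16, adjusted p = 0.0195) was not called with equal totals (0.645), with quantile normalization (0.200), in a fit to the OXA libraries alone (0.0501), or without Il13ra1-/- OXA library 3 (0.0834) or 4 (0.0550) or WT OXA library 1 (0.0592). Sprr3 (0.83 ± 0.28, adjusted p = 0.0346) was not called with no filter (0.111), equal totals (0.167), quantile normalization (0.710), in a fit to the OXA libraries alone (0.0792), or without Il13ra1-/- OXA library 1 (0.104) or 3 (0.0671), or WT OXA library 1 (0.0821), 2 (0.0699) or 3 (0.0774). The Cnfn call was lost with quantile normalization (0.103).

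Under vehicle, no member differed between Il13ra1-/- and WT by limma, edgeR or DESeq2. There were 0 of 33 called higher and 0 lower by each tool, where limma called 0.0358% and 0.0239% of all genes tested, in all 0.0597%. An unadjusted p under 0.05 was reached by 3 members, all higher in Il13ra1-/-: Lce1l (0.80 ± 0.29, adjusted p = 0.441), Sprr1a (0.50 ± 0.18, 0.444) and Sprr1b (0.63 ± 0.27, 0.515). The estimates lay between -0.18, for Cst6, and 0.86, for Ivl, whose low values average the other way (10.5 in Il13ra1-/- vehicle, 12.5 in WT vehicle), with a median of 0.21 against 0.02 over all genes tested. For Kprp alone the 4 Il13ra1-/- vehicle libraries were all above the 4 WT vehicle libraries (2.66% of all genes tested, and 2.69% for the other direction), with an adjusted p of 0.571.

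Other genes of cornification moved in both directions in WT. For the lists that follow, the shares called over all genes tested were 18.0% higher and 16% lower in WT. In Il13ra1-/- those shares were 1.81% and 0.0896%. Of the fused S100 genes, which encode filaggrin-type proteins of the same cells, 3 of 4 tested fell. Filaggrin (Flg) averaged 573 ± 206 in Il13ra1-/- OXA, 234 ± 116 in Il13ra1-/- vehicle, 1.70 ± 1.24 in WT OXA and 219.6 ± 114 in WT vehicle. Hornerin (Hrnr) averaged 4635 ± 1788 in Il13ra1-/- OXA, 4597 ± 1359 in Il13ra1-/- vehicle, 80.0025 ± 53.8 in WT OXA and 2875 ± 986 in WT vehicle. Repetin (Rptn), which is itself crosslinked into the envelope, averaged 24020.3 ± 8497 in Il13ra1-/- OXA, 18148 ± 3226 in Il13ra1-/- vehicle, 2182 ± 446 in WT OXA and 12824 ± 3573 in WT vehicle (SD, n = 4 each). All 3 were called lower in WT and above 0 in the interaction. In Il13ra1-/- limma and edgeR called 0 of the 4 and DESeq2 called 1 higher, and 1 had an unadjusted p under 0.05.

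The Sprr2 genes, relatives of Sprr1, went the other way: 9 of 9 tested rose in WT, with a median log2 fold change of 6.10. Sprr2a3 averaged 432 ± 288 in Il13ra1-/- OXA, 342 ± 67.9 in Il13ra1-/- vehicle, 15511 ± 3793 in WT OXA and 389 ± 122 in WT vehicle. In Il13ra1-/- 2 of 9 rose by limma (4 by edgeR, 5 by DESeq2), Sprr2d (log2 fold change 3.87, adjusted p = 0.00509) and Sprr2h (2.21, 0.0308). The Sprr2h call was lost with no filter (0.0850), with equal totals (0.0599), without Il13ra1-/- OXA library 1 (0.137) or 2 (0.139) and without Il13ra1-/- vehicle library 3 (0.1095) or 4 (0.104), and that of Sprr2d in a fit to Il13ra1-/- libraries alone (0.0516). Sprr2h averaged 219 ± 146 in Il13ra1-/- OXA, 41.8 ± 17.2 in Il13ra1-/- vehicle, 3638 ± 293 in WT OXA and 31.2 ± 37.2 in WT vehicle, and the interaction was below 0 and called for 8 of 9 by limma and for 5 by either count test. Sprr2 genes are near-identical in places, so reads may be split between them.

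Of the other transglutaminase genes 0 of 3 tested were called in WT or in Il13ra1-/- by limma, edgeR or DESeq2, with 2 at an unadjusted p under 0.05 in WT and 1 in Il13ra1-/-. The smallest p in WT was that of Tgm6 (adjusted p = 0.0660), whose mean was 6.72 ± 2.90 in WT OXA and 1.03 ± 2.06 in WT vehicle. Among 17 other envelope-bound and desmosomal genes, 4 rose and 6 fell in WT, against 18.0% and 16% of all genes tested. Crct1 averaged 15829 ± 4679.5 in Il13ra1-/- OXA, 11001 ± 1203 in Il13ra1-/- vehicle, 3189 ± 351 in WT OXA and 9701 ± 1983 in WT vehicle. Desmoglein 1 alpha (Dsg1a), a cadherin of differentiated layers, averaged 2848 ± 799 in Il13ra1-/- OXA, 2201 ± 279.9 in Il13ra1-/- vehicle, 672 ± 229 in WT OXA and 2162 ± 554 in WT vehicle. In Il13ra1-/- 1 of 17 rose, the cystatin Csta1 (0.97, adjusted p = 0.0346), with 8 at an unadjusted p under 0.05, 1 call by edgeR and 3 by DESeq2. The Csta1 call was lost with no filter (0.0847), in a fit to Il13ra1-/- libraries alone (0.0838), without Il13ra1-/- OXA library 1 (0.160), 2 (0.132) or 3 (0.0784), without Il13ra1-/- vehicle library 1 (0.0987), 2 (0.0784) or 3 (0.132), and without WT OXA library 2 (0.0501).

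Enzymes of the lipid envelope, which covers the protein envelope with ceramides, gave 6 lower of 14 tested in WT, against 16% of all genes tested. In Il13ra1-/- limma and edgeR called 0 of 14 and DESeq2 called 1 higher, with 2 at an unadjusted p under 0.05. The lipoxygenase Aloxe3 averaged 3694 ± 224 in Il13ra1-/- OXA, 3621 ± 343 in Il13ra1-/- vehicle, 925 ± 207 in WT OXA and 2641 ± 901 in WT vehicle. The acyltransferase-like Pnpla1 averaged 737 ± 172 in Il13ra1-/- OXA, 689 ± 80.6 in Il13ra1-/- vehicle, 214 ± 18.6 in WT OXA and 577 ± 115 in WT vehicle. Of 12 cornification proteases and inhibitors 6 fell and 3 rose in WT, against 16% and 18.0% of all genes tested. Caspase 14 (Casp14), which acts on filaggrin, averaged 2032 ± 533 in Il13ra1-/- OXA, 2015 ± 311 in Il13ra1-/- vehicle, 314 ± 65.1 in WT OXA and 1923 ± 433 in WT vehicle. The retroviral-like protease Asprv1 averaged 133699 ± 41686 in Il13ra1-/- OXA, 103138 ± 21806 in Il13ra1-/- vehicle, 8767 ± 1989 in WT OXA and 76118 ± 28812 in WT vehicle. The kallikrein Klk5, a desquamation protease, averaged 496 ± 41.9 in Il13ra1-/- OXA, 391 ± 68.6 in Il13ra1-/- vehicle, 6.41 ± 7.86 in WT OXA and 307 ± 55.3 in WT vehicle. In Il13ra1-/- 1 of 12 rose, cystatin B (Cstb, 0.92, adjusted p = 0.0416), with 4 at an unadjusted p under 0.05, 1 call by edgeR and 2 by DESeq2. The Cstb call was lost with no filter (0.104), in a fit to Il13ra1-/- libraries alone (0.174), and on leaving out any library other than Il13ra1-/- OXA library 4 or WT vehicle library 4 (0.0504 to 0.152).

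Of 18 transcription factors and other regulators with known roles at envelope genes, 4 rose and 2 fell in WT, close to the shares over all genes tested (18.0% and 16%). Grhl3, a grainyhead factor needed for barrier formation in mouse epidermis, averaged 2033 ± 407 in Il13ra1-/- OXA, 2135 ± 264 in Il13ra1-/- vehicle, 1049 ± 143 in WT OXA and 2345 ± 67.01 in WT vehicle (log2 fold change in WT -1.17, adjusted p = 8.51e-06). Ets1, which in mouse epidermis can repress terminal differentiation when forced, averaged 144 ± 54.4 in Il13ra1-/- OXA, 129 ± 42.99 in Il13ra1-/- vehicle, 458 ± 40.8 in WT OXA and 111 ± 43.5 in WT vehicle, and rose in WT (2.12, adjusted p = 2.98e-05).

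Markers of cell layers and of other cell types were read in the same libraries, and their part in the WT change was not tested. Shares called over all genes tested were 18.0% higher and 16% lower in WT, and 1.81% and 0.0896% in Il13ra1-/-. Of 9 squamous markers tested 3 rose and 2 fell in WT, and the list summed to 1245210 to 2722150 in Il13ra1-/- OXA, 1341370 to 1651000 in Il13ra1-/- vehicle, 444317 to 730443 in WT OXA and 1270630 to 1872780 in WT vehicle. Sox2 was listed at 0 throughout. Basal Krt5 averaged 17894 ± 2199.8 in Il13ra1-/- OXA, 17220 ± 1382 in Il13ra1-/- vehicle, 16918 ± 3490.5 in WT OXA and 20139 ± 6275 in WT vehicle, whereas basal Krt14 averaged 3590.4 ± 1409.8 in Il13ra1-/- OXA, 2226 ± 195 in Il13ra1-/- vehicle, 12461 ± 2388 in WT OXA and 3026 ± 529 in WT vehicle (SD, n = 4 each). Krt15, also on the list, fell in WT by limma (log2 fold change -2.38, adjusted p = 3.11e-06). Its means were 4387 ± 1399 in WT OXA and 22256 ± 5779 in WT vehicle. In Il13ra1-/- they were 26479 ± 9325 under OXA and 19800 ± 1696 under vehicle. Of 12 immune markers tested 8 rose in WT and 3 in Il13ra1-/- (5 by edgeR, 6 by DESeq2, each with 1 lower), and the list summed to 1435 to 3782 in Il13ra1-/- OXA, 760 to 1421 in Il13ra1-/- vehicle, 4034 to 5122 in WT OXA and 983 to 1845 in WT vehicle. Epx, the defining peroxidase of eosinophils, was at 0 in all libraries. So were Sox2, as above, and Sbsn, of the other envelope-bound genes. A 3′ tag beyond a gene model would not be counted, so the 0 of Epx does not show that eosinophils were absent. Of 6 club cell and glandular stomach markers tested 2 fell in WT, Cyp2f2 and Scgb1a1, and the list summed to 17290 to 33016 in Il13ra1-/- OXA, 25635 to 34387 in Il13ra1-/- vehicle, 693 to 1966 in WT OXA and 37231 to 54792 in WT vehicle. Cyp2f2 made up most of these sums, with means of 41264 in WT vehicle and 848 in WT OXA. Scgb1a1 averaged 92.0 and 10.9 in those groups. The sums thus follow Cyp2f2 and are not read as an amount of club or stomach cells. Of 12 stromal, endothelial and muscle markers 2 rose and 3 fell in WT, not far from the 18.0% and 16% over all genes tested, with sums of 91824 to 138321 in Il13ra1-/- OXA, 118442 to 175392 in Il13ra1-/- vehicle, 86316 to 133719 in WT OXA and 116773 to 220598 in WT vehicle. Of the keratinized epidermis and hair markers 2 were tested and 1 fell in WT, with sums of 97.8 to 106 in Il13ra1-/- OXA, 65.3 to 89.0 in Il13ra1-/- vehicle, 39.6 to 59.4 in WT OXA and 31.2 to 81.9 in WT vehicle.

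The balance of calls over all genes moved with the scaling. Rescaled to a common library total, the values gave a median WT change over all genes of 0.41 on the log2 scale, against 0.10 with the deposited size factors, and 77.3% of WT calls were higher, against 53.0%. The share of calls above 0 was 20.3% with equal totals against 56.9% for the interaction, and 19.9% against 53.1% for Il13ra1-/- against WT under OXA. Among the members, 26 were lower and 3 higher in WT with equal totals, and no called member changed sign under any setting tried.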

How the data were processed

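Esophagus RNA extracted with TRIZOL was profiled by CEL-Seq on a NextSeq550 in 16 libraries, 4 per group, per the labels. Per the submitters' processing notes, the tools were FastQC 0.11.5, Trim Galore, cutadapt 1.10, TopHat2 2.1.0, Bowtie2 2.2.6, HTSeq 0.6.1 and DESeq2 1.28.0, with the genome GRCm38. Neither the annotation release, nor the strand setting, nor how molecular identifiers were handled is given in those sources. The deposited signal values are gene counts normalized by the authors, that is, divided by 1 size factor per library. Whole reads were recovered from them (100% of values within 0.1 read of a whole number), which gave each library's depth. The normalization assumes that most genes do not change. PCR copies may stand among the reads, so limits from counts cover counting error only.

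Members and gene lists were chosen with earlier results of these data known, so counts of members called describe these libraries and support nothing beyond them.

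Tests used limma 3.58.1 (R 4.3.3). Values were taken as log2(value + 1), and 1 model over all 16 libraries held the group means, with a variance trend and two-sided p-values adjusted by Benjamini-Hochberg over 16748 genes that reached 5 in 4 or more libraries. The threshold was an adjusted p under 0.05, and fold changes of genes with low values are understated on this scale. Of the 34 members, 33 passed the filter. The interaction is the OXA effect in Il13ra1-/- minus that in WT. The alternatives were pseudocounts of 0.5 and 5, 3 other filters, equal library totals, quantile normalization, fits to only the groups compared, edgeR 4.0.16 and DESeq2 1.42.0 on recovered reads, reads thinned to the shallowest library, and each library left out in turn.

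Every library's value is printed for each member with a mean of at least 100 in at least 1 group or a call in the interaction, and also for Ivl, added after its values were seen. For the other lists up to 3 tested genes with the smallest p in a comparison may be named. Errors are SD over 4 libraries, or SE for log2 fold changes. Promoter windows are RefSeq's for GRCm38.p6, and gene positions are those of GENCODE M21.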

Additional observations from a re-analysis of the deposited data

Results flagged for a closer look

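A library stood apart from the other 3 of its group in 4 of 132 gene-and-group sets examined, by Dixon's gap test at its 95% critical value. Chance alone flags about 1 in 20 sets. Lce1m was 291 in Il13ra1-/- vehicle library 3, with the others at 382 to 392. Ppl was 7516 in WT vehicle library 2, with the others at 5736 to 5906. Sprr1a was 30885 in WT OXA library 4, with the others at 27061 to 27567. Sprr3 was 41566 in Il13ra1-/- vehicle library 3, with the others at 43795 to 44256.

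The effect of OXA differed between Il13ra1-/- and WT for 28 members by the interaction term of the limma fit, with values on the log2 scale and an adjusted p under 0.05. In the Lce1 family the interaction was 5.41 for Lce1a1, 5.74 for Lce1a2, 6.30 for Lce1b, 6.23 for Lce1c, 5.44 for Lce1d, 5.50 for Lce1e and 4.24 for Lce1f. It was 5.21 for Lce1g, 6.22 for Lce1h, 5.63 for Lce1i, 6.96 for Lce1j, 7.48 for Lce1k, 6.71 for Lce1l and 7.14 for Lce1m. In the Lce3 family it was 3.12 for Lce3a, 3.34 for Lce3b, 2.97 for Lce3c, 1.41 for Lce3d, 3.89 for Lce3e and 3.52 for Lce3f. Among the other members it was 2.14 for Lor, 1.0 for Cnfn, 4.57 for Kprp, 2.82 for Cst6, 2.13 for Ppl and 1.51 for Tgm3. It was -1.88 for Sprr1a and -2.25 for Sprr1b.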

How the results depend on the processing

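No direction among the called members turned round under any alternative run. Leaving out each library in turn gave 26 to 27 members lower and 2 to 3 higher in WT, 0 to 3 higher and 0 lower in Il13ra1-/-, 25 to 27 above 0 and 2 below 0 in the interaction, and 27 to 29 higher and 2 lower for Il13ra1-/- against WT under OXA. Under vehicle it gave 0 in either direction. For OXA in Il13ra1-/-, where limma called 0 members higher, a fit to only that genotype gave 1 and DESeq2 gave 3. The cause was not tested. Ivl was called lower in WT by DESeq2 (adjusted p = 0.0204) and higher in Il13ra1-/- under OXA (0.0437), and Tgm1 was called under OXA (0.00398) and in the interaction (0.0235) with equal library totals. Over all genes, DESeq2 called 652 higher and 69 lower for OXA in Il13ra1-/- (limma 303 and 15), and 20 higher and 23 lower between genotypes under vehicle (limma 6 and 4). With no filter 222 were higher and 8 lower for OXA in Il13ra1-/-, and 5 and 0 between genotypes under vehicle. Equal library totals gave 5107 higher and 1496 lower in WT (limma on the deposited values 3019 and 2673), 883 above and 3459 below 0 in the interaction (1698 and 1284), and 1273 higher and 5111 lower under OXA (2450 and 2167). No paired analysis was possible because the codes in the titles differ between groups and pair no libraries. Depth limits Ivl and, in WT OXA, Lce1m, each on 0 to 29 reads per library. Low WT OXA values also limit the size of the falls of Lce1j, Lce1k and Lce1l (means of 10.35, 11.58 and 11.56). The same holds for Flg (1.70).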
